A study of Homo sapiens with 18 samples.

Results

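The 9 genes described here are members of the S100 family of small calcium-binding proteins, followed across Mel92.1 and MP41, cell lines grown from uveal melanoma, a tumour of the pigment cells of the eye. They are S100B, S100A1, S100A2, S100A4, S100A6, S100A10, S100A11, S100A13 and S100A16, which are 9 of the 26475 gene symbols in the count table and 9 of the 21 symbols of the S100 family in it. S100B was chosen by its measured fall with UNC0642 in MP41, and the other members are the relatives set beside it. Each line was kept for 48 h with the solvent DMSO, with UNC0642 at 1 µM or with A366 at 1 µM, with 3 biological replicates per group and 18 libraries in all. UNC0642 and A366 are small-molecule inhibitors of EHMT2 (G9a), the enzyme that places dimethyl marks on lysine 9 of histone H3 at silenced genes. The paper states that both compounds can inhibit EHMT1 as well. Both lines grew in RPMI medium with serum, at a share that the labels give as equal and the paper's methods as higher for MP41, so serum and line cannot be told apart between the lines. The untreated state is represented by the DMSO libraries.

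S100 proteins carry a pair of EF-hand loops that bind calcium, after which most of them expose a surface that grips a partner protein. S100B is made by cells of neural crest origin, among them melanocytes and Schwann cells, and is used in pathology as a marker of melanocytic tumours. Once released from a cell, several members signal through the receptor AGER (RAGE). Inside the cell they bind annexins, non-muscle myosin and actin-capping proteins. Most of the family is encoded in a gene cluster on chromosome 1, and S100B lies apart on chromosome 21.

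In GENCODE release 29 (GRCh38), S100B (ENSG00000160307.9) spans chr21:46598962-46605208 on the minus strand. S100A6 (chr1:153534599-153536244), S100A4 (chr1:153543613-153550136), S100A2 (chr1:153561108-153567890), S100A16 (chr1:153606886-153613145), S100A13 (chr1:153618787-153631360) and S100A1 (chr1:153627926-153632039) lie within 97.4 kb of each other. S100A10 (chr1:151982915-151994390) and S100A11 (chr1:152032506-152047907) lie on the same chromosome outside that stretch. All of them are on the minus strand except S100A1. S100A1 and S100A13 overlap on opposite strands, and S100A4 overlaps S100A3 on the same strand, so their counts depend on how reads were shared out. The libraries were strand-specific, and the strand setting of the counting is not given in the sources used here. The reference transcripts of the members are short, from 594 to 1202 bases against a median of 2356 over all symbols matched.

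The promoter windows of 3 members are shown because these neighbours went different ways in the results that follow: S100A6 was present in one line and near 0 in the other, S100A16 had the opposite pattern, and S100A1 was high in both. Each window runs from 250 bases before to 50 after a RefSeq start (GRCh38.p14), 5′ to 3′ on the strand of the gene, and RefSeq gave a window for 8 of the 9 members. Capitals mark a match to 1 of 4 motifs searched on both strands: the TATA box TATAAA, the E-box CACGTG, the AP-1 site TGANTCA and the GC box GGGCGG.
S100A6, chr1:153535942-153536241, minus strand: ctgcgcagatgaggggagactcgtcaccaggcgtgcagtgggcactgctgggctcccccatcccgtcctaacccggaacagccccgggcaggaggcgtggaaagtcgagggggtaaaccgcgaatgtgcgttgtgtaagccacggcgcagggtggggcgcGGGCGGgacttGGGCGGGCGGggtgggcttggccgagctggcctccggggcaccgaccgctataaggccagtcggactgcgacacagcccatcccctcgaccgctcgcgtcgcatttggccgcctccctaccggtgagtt
S100A16, upstream start, chr1:153613088-153613387, minus strand: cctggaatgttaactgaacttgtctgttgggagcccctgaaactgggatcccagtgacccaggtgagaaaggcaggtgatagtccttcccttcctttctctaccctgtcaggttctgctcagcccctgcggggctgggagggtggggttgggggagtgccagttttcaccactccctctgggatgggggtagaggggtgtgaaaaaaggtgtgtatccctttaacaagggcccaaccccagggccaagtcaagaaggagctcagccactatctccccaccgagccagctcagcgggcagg
S100A16, downstream start, chr1:153609306-153609605, minus strand: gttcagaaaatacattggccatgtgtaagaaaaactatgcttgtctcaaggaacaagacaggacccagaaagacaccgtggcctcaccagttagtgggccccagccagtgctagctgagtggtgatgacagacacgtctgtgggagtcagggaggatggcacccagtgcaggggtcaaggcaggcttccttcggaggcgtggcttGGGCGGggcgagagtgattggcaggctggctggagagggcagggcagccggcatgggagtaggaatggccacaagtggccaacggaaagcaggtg
S100A1, chr1:153628184-153628483, plus strand: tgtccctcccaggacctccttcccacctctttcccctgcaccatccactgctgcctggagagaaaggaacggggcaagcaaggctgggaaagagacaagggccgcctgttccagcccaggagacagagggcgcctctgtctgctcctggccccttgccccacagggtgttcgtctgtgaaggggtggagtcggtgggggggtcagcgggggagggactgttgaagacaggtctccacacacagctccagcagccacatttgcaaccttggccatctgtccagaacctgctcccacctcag

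The S100A6 window held 3 matches to the GC box, a pair of them overlapping, and 31 CpG dinucleotides, more than 79.3% of the 35116 windows of this length. The windows of S100A16 held 3 CpG at the upstream start and 8 at the downstream start, and the latter had 1 GC box match. The S100A1 window held 6 CpG and none of the 4 motifs. The median window had 14 CpG. Over all windows, 45% held a GC box match, 11.5% a TATA box, 7.71% an AP-1 site and 7.26% an E-box, so a GC box match is common. These are letter matches only, and a window without one says nothing of the factors that bind there.

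The libraries held between 23601156 and 62941462 counts, with a median of 41955693. A gene's level is given as CPM, the count of a gene relative to the library total scaled by TMM factors over the 18 libraries, with the SD over 3 libraries, and adjusted p-values come from the quasi-likelihood test of edgeR, adjusted by Benjamini-Hochberg across every gene in the fit, with a threshold of 0.05. Libraries were named by their labels, but those labelled A366 replicates 2 and 3 went against their labelled line: genes found in 1 line only, 20 for Mel92.1 and 21 for MP41 with no member among them, were at 0.0348% or less of the level they have with DMSO in the labelled line and at 95.2% to 121% of that in the other. In the other 14 libraries such genes were at 88.4% to 123% of the level of the labelled line and at 0.432% or less of that of the other. They were picked as at 20 CPM or more in every DMSO library of their line and at 0.05 CPM or less in those of the other. Their values in the DMSO libraries are therefore fixed by the choice. The 4 libraries were therefore placed in the other line, and changes that rest on them are also given without them. Mel92.1 UNC0642 replicate 1 stood apart as well, with 32.8% of its counts on 4 ribosomal RNA genes against 19.5% or less elsewhere, and with 12837 genes at 10 counts or more against 14123 to 14983. All 7 melanocyte markers (SOX10, MITF, PMEL, MLANA, TYR, TYRP1 and DCT) were at 1 CPM or more in every group, DCT at only 1.7 CPM with A366 in Mel92.1. The immune marker CD68 and the fibroblast markers COL1A1 and LUM also reached 1 CPM in every group, so this bar alone does not settle the cell type. Summed by list, melanocyte markers were at 1.5e+04 CPM or more in every library. Fibroblast markers were at 53.3 CPM or less and immune markers at 183 CPM or less.

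With DMSO, the S100 profile differed most between the lines in S100B and S100A16, which were high in MP41 and almost absent in Mel92.1, and in S100A6, which was high in Mel92.1 and almost absent in MP41. S100B had 58.5, 63.3 and 55.9 CPM in the MP41 libraries and only 7, 6 and 8 counts in the Mel92.1 libraries, that is 0.17 CPM ± 0.0326 (SD, n = 3). The level was 353 times as high in MP41 by summed counts (95% interval of the counting error 231 to 570), and no library of one line came near the other. S100A16, a widely expressed member of the cluster, had 15.8, 14 and 16.1 CPM in MP41 and 0, 1 and 0 counts in Mel92.1. From that 1 count the ratio of levels was 1.92e+03, with a counting interval of 345 to 7.6e+04. S100A6 (calcyclin, a partner of CACYBP and of annexins) had 17.3, 22.7 and 22.7 CPM in Mel92.1 and 13, 31 and 12 counts in MP41, a ratio of 49.9 (38.3 to 66.2). Intervals on ratios of counts cover counting error only.

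The members expressed in both lines differed less. S100A1, which regulates calcium handling in muscle, had 83.5, 100 and 105 CPM in Mel92.1 and 65.1, 73.3 and 66.3 CPM in MP41, a log2 difference of 0.50 (SE 0.13, adjusted p = 0.00284). S100A11, a partner of annexin A1, had 118 CPM ± 18 against 92 CPM ± 2.78 (log2 difference 0.36, adjusted p = 0.00609). S100A13, which takes part in the unconventional release of FGF1, was lower in Mel92.1, at 31.6 CPM ± 5.01 against 49.6 CPM ± 5.26 (log2 difference -0.65, SE 0.15, adjusted p = 0.000828). S100A10 (p11), the annexin A2 partner that has lost calcium binding, had 19.7 CPM ± 2.65 in Mel92.1 and 18.7 CPM ± 1.65 in MP41, and its libraries overlapped (log2 difference 0.078, 95% interval -0.16 to 0.31). S100A2 and S100A4, known from epithelial cells and from metastatic tumours, had group means of 0.205 to 0.479 CPM in both lines with DMSO, where S100A4 ranged from 0.0435 to 0.441 CPM between MP41 libraries.

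In the test of Mel92.1 against MP41 with DMSO, 6 of the 9 members passed, 3 higher and 3 lower in Mel92.1, where 69.4% of all genes tested passed. The values of S100B and S100A16 are descriptions here, since S100B was selected with the MP41 DMSO libraries and S100A16 passed the filter on low counts only through MP41, where it is high. Of the remaining 7 members 4 passed, S100A1, S100A11, S100A13 and S100A6 (log2 difference 5.64, SE 0.38, adjusted p = 3.36e-10), which was over the filter in the DMSO libraries of both lines. Over the genes tested the log2 difference had a Spearman correlation of 0.28 with GC content and -0.18 with transcript length. With both taken into the fit as an offset, S100A1 was at a log2 difference of -0.04, S100A11 no longer passed and S100A10 passed at -0.31 (adjusted p = 0.0118), while the calls of S100A6 and S100A13 held.

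Per kilobase of transcript the order with DMSO in Mel92.1 was S100A11 (199 CPM per kb ± 30.3), S100A1 (162 ± 19), S100A13 (46 ± 7.3), S100A6 (31.1 ± 4.64), S100A10 (16.4 ± 2.2), S100A2, S100A4, S100B and S100A16. The libraries of S100A11 and S100A1 overlapped in this order, as did those of S100A2 and S100A4, and the other neighbours did not. In MP41 the order was S100A11 (155 ± 4.68), S100A1 (115 ± 7.47), S100A13 (72.2 ± 7.67), S100B (67.5 ± 4.24), S100A10 (15.5 ± 1.37), S100A16 (13.4 ± 0.999), S100A6, S100A2 and S100A4. Here S100A13 and S100B overlapped, and so did S100A6, S100A2 and S100A4 in turn. S100B made up 15.4% ± 0.434 of the summed level per kilobase of the members in MP41 with DMSO and 0.0424% ± 0.00407 in Mel92.1.

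**Figure D1:**
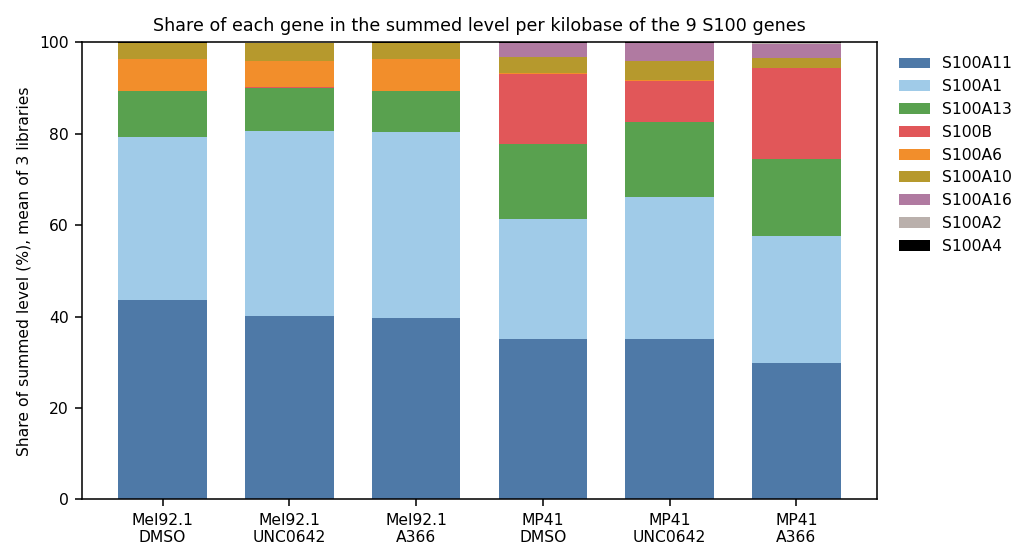
Stacked bars give the mean share, in percent over 3 libraries, of each member in the summed level per kilobase of the 9 members, for the 6 groups. S100A11 and S100A1 take most of every bar, S100B appears in MP41 alone at this scale, with 15.4%, 8.89% and 19.9% under DMSO, UNC0642 and A366, and S100A6 in Mel92.1 alone.

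S100B moved in opposite directions with the inhibitors in MP41. With DMSO the libraries had 58.5, 63.3 and 55.9 CPM, with UNC0642 32.3, 31.6 and 31.7 CPM, and with A366 112, 90.8 and 117 CPM, of which the last pair are libraries labelled Mel92.1. All 3 groups lay apart, UNC0642 lowest and A366 highest, and the UNC0642 libraries were closest to each other (SD 0.384 CPM against 3.72 with DMSO and 14.1 with A366). S100B was selected on the fall with UNC0642, so that log2 fold change of -0.90 (SE 0.092) is a description and is not tested here. As a ratio of counts within a library, a description from the same S100B counts, S100B over S100A1 was 0.868 ± 0.0276 in DMSO libraries, 0.427 ± 0.0747 under UNC0642 and 1.05 ± 0.0212 under A366. Its share of the summed level of the members went from 15.4% to 8.89% ± 0.815 and 19.9% ± 0.542.

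**Figure D2:**
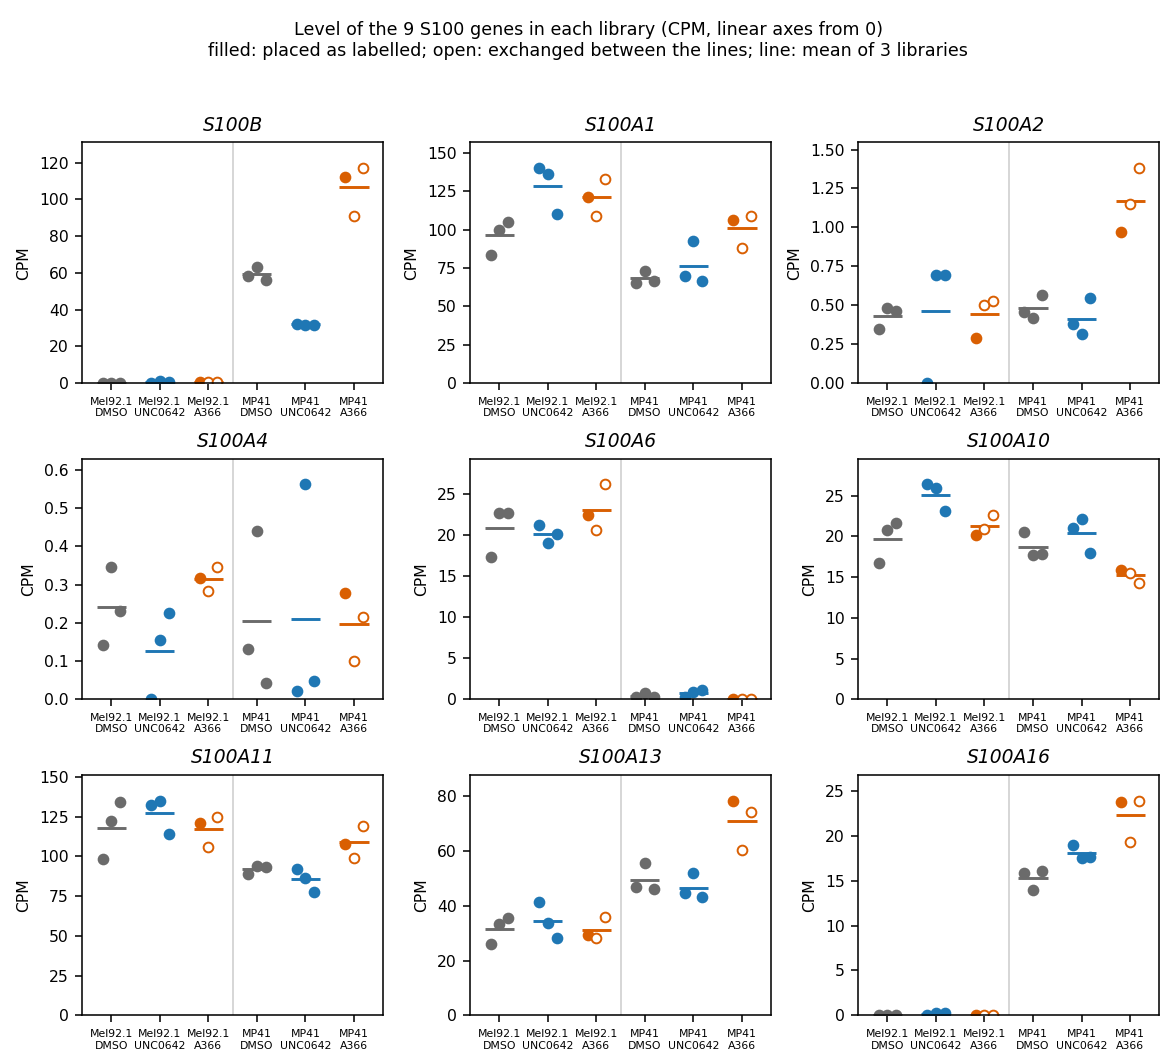
Each panel shows 1 gene, with CPM on a linear axis from 0 and the 6 groups along the horizontal axis. Points are libraries, open where they were exchanged between the lines, and lines are means of 3. S100B is near 0 in Mel92.1 and splits into 3 separate levels in MP41, S100A16 follows the line in the same way, and S100A6 has the opposite pattern.

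None of the other 8 members passed the test with UNC0642 in MP41. S100A1 had 70, 92.7 and 66.3 CPM against 65.1 to 73.3 with DMSO, and the high value was replicate 2. S100A16 had 19, 17.5 and 17.6 CPM against 15.8, 14 and 16.1, groups that did not overlap, at a log2 fold change of 0.23 (95% interval 0.016 to 0.45). S100A11, S100A13 and S100A10 overlapped with DMSO, at log2 fold changes of -0.11, -0.094 and 0.12. S100A6 had 12, 41 and 47 counts against 13, 31 and 12. Of the 9 members 1 passed the threshold, S100B, where 0.241% of all genes tested did, and since the choice of S100B used this comparison nothing is read from the count. The median log2 fold change was 0.08 over the members and 0.0011 over all genes.

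With A366 in MP41, S100A1, S100A2, S100A11, S100A13 and S100A16 rose, S100A10 fell, and S100A4 did not pass. With S100B, which was higher, and S100A6, which was lower, that is 8 of 9 members where 46.0% of all genes tested passed, 3362 of them higher and 3522 lower. S100B and S100A6 are left out of the reading, because S100B was selected on the same DMSO libraries and S100A6 entered the fit through the groups where it is higher, and 6 of the other 7 passed. The level of S100B with A366 was 1.77 times that with DMSO (log2 fold change 0.83, SE 0.09), given as a description. S100A1 had 106, 88.1 and 109 CPM, all above the DMSO libraries (log2 fold change 0.54, SE 0.12, adjusted p = 0.00359). S100A13 had 78.4, 60.5 and 74.2 CPM against 47, 55.6 and 46.1 (log2 fold change 0.49, SE 0.11, adjusted p = 0.0034). S100A16 had 23.7, 19.3 and 23.9 CPM (log2 fold change 0.52, SE 0.098, adjusted p = 0.00168). In each of these genes the library labelled Mel92.1 A366 replicate 2 was the lowest of its group.

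S100A11 rose least, with 108, 99.2 and 119 CPM against 88.8, 93.9 and 93.2 (log2 fold change 0.22, SE 0.082, adjusted p = 0.0475), a call that was kept in 3 of the 9 fits that left out 1 library of the line. S100A2, a member known from epithelia, had 56, 57 and 64 counts against 21, 18 and 26, that is 1.16 CPM ± 0.205 against 0.479 CPM ± 0.0765 (log2 fold change 1.25, SE 0.35, adjusted p = 0.0132). S100A10 fell, with 15.9, 15.5 and 14.3 CPM against 20.6, 17.7 and 17.8 (log2 fold change -0.32, SE 0.10, adjusted p = 0.0218). S100A4, which binds non-muscle myosin, had 16, 5 and 10 counts against 6, 19 and 2, and its groups overlapped in MP41 (adjusted p = 0.971).

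S100A6 had 0, 1 and 0 counts in the A366 libraries of MP41, against 13, 31 and 12 with DMSO and 12, 41 and 47 with UNC0642. All 6 other libraries of the line had 12 counts or more. By summed counts the level with DMSO was 63.7 times that with A366, from 56 counts against 1 (counting interval 11 to 2.56e+03). S100A6 entered the fit of this line only through its DMSO and UNC0642 libraries, so no test is given. With DMSO and UNC0642, S100A6 in MP41 was at 1.25% to 5.33% of its mean in Mel92.1 with DMSO, while the genes found only in Mel92.1 were at 0.0719% or less in the same libraries. Those genes were picked as near 0 in MP41 with DMSO, so nothing is read from the comparison. The 3 epithelial markers EPCAM, CDH1 and KRT5 summed to 0.0435 to 0.411 CPM with DMSO, 0.38 to 1.33 CPM with UNC0642 and 0.0604 to 0.121 CPM with A366, with none of the 3 at 1 CPM on average and KRT5 at 0 in all DMSO libraries. Their part in the S100A6 counts was not tested. Of 3 endothelial markers, VWF, the 1 tested, rose with A366 (summed level 2.37 to 3.14 CPM against 0.369 to 0.584 with DMSO, CDH5 at 0 there), while of the 4 fibroblast markers COL1A1 and LUM, the 2 tested, fell (summed level of the list 22.5 to 23.4 CPM against 27.1 to 30.2) and the 4 immune markers, nearly all of it CD68, summed to 152 to 174 CPM with DMSO and 167 to 178 CPM with A366. With the exchanged libraries left out, VWF and COL1A1 passed and LUM did not. In bulk libraries, fewer cells of a type and less RNA per cell cannot be told apart.

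Across all genes, the change with A366 in MP41 went with base composition and length, at a Spearman correlation of 0.47 with GC content and -0.49 with transcript length, and the members have short transcripts. With both as an offset, 4 members passed, where 31.8% of all genes tested did. S100B (log2 fold change 0.47) and S100A6 are left out of the reading as before. The others were S100A10 (-0.68) and S100A11, which turned to -0.23 (adjusted p = 0.0212). S100A1, S100A13, S100A16 and S100A2 were then at 0.034, 0.037, 0.13 and 0.89 and no longer passed. Without the 4 exchanged libraries, where A366 in MP41 is 1 library assumed to vary like the other groups, 5 members were past the threshold, S100B, S100A1, S100A6, S100A13 and S100A16, in the same directions and where 35.7% of all genes were, with S100B at a log2 fold change of 0.88.

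**Figure D3:**
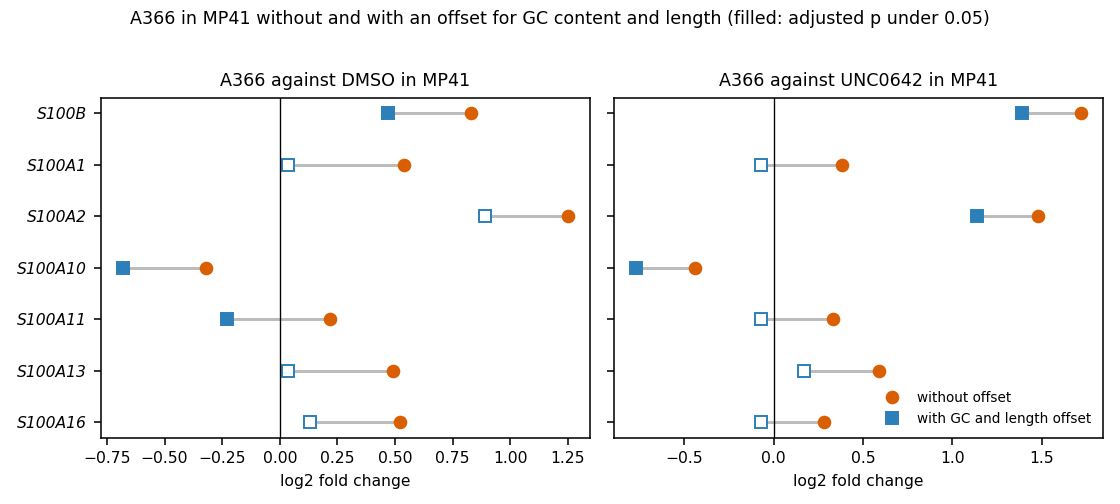
Log2 fold changes (horizontal axis) of 7 members with A366 in MP41, against DMSO and against UNC0642, as fitted (circles) and with GC content and length as an offset (squares). Filled symbols have an adjusted p under 0.05. Every square lies to the left of its circle and S100B stays to the right of 0 in both panels, while S100A1 and S100A13 move to 0.034 and 0.037 against DMSO.

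Set against UNC0642, A366 in MP41 again gave 8 of 9 members past the threshold, 6 higher and 2 lower, where 43.1% of all genes tested passed. Leaving aside S100B and S100A6 as before, 6 of the other 7 passed. S100B was 3.3 times as high with A366 (log2 difference 1.72, SE 0.091), a value that leans on the UNC0642 libraries it was selected on and is given without a test. S100A13 was higher by 0.59 on the log2 scale (adjusted p = 0.00148), S100A11 by 0.33 (adjusted p = 0.00743), S100A1 by 0.38 (adjusted p = 0.0216), S100A16 by 0.28 (adjusted p = 0.0337) and S100A2 by 1.48 (adjusted p = 0.00636). The calls of S100A1 and S100A16 were each kept in 5 of the 9 fits that left out 1 library. S100A10 was lower by 0.44, where the A366 libraries (14.3 to 15.9 CPM) lay below the UNC0642 libraries (18 to 22.2 CPM), at an adjusted p of 0.00439. S100A6 had 1 count in all with A366 and 100 with UNC0642, a ratio of 114 (20 to 4.54e+03). With the GC and length offset, S100A1, S100A11 and S100A16 turned to log2 differences of -0.069, -0.073 and -0.072. Then 4 members passed, S100B and S100A6 among them, where 34.1% of all genes did. Without the 4 exchanged libraries, where A366 in MP41 is 1 library, these members kept their directions, and S100A2 no longer passed, at a log2 difference of 1.19.

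In Mel92.1 no member passed with either inhibitor. With UNC0642, 0 of the 8 members tested passed where 0.688% of all genes did, and 2 had an unadjusted p under 0.05 in edgeR. S100A1 had 140, 136 and 110 CPM against 83.5, 100 and 105, groups that did not overlap, at a log2 fold change of 0.41 (95% interval 0.14 to 0.69, adjusted p = 0.275). S100A10 had 26.4, 25.9 and 23.1 CPM against 16.7, 20.8 and 21.7, a log2 fold change of 0.34 (0.077 to 0.61, adjusted p = 0.385). S100A6, S100A11 and S100A13 overlapped with DMSO, at log2 fold changes of -0.058, 0.10 and 0.12. DESeq2 also called none of the members, beside 2.68% of all genes.

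With A366 in Mel92.1, 0 of 8 members passed where 0.213% of all genes did, and 1 had an unadjusted p under 0.05 in edgeR. That was S100A1, with 121, 109 and 133 CPM, all above the DMSO libraries (log2 fold change 0.33, 95% interval 0.056 to 0.60, adjusted p = 0.878). S100A6 had 22.5, 20.6 and 26.2 CPM, against 17.3 to 22.7 with DMSO. The other members were within -0.014 and 0.40 on the log2 scale, apart from S100B at 1.04 from 11, 20 and 17 counts against 7, 6 and 8. For A366 against UNC0642, 0 of 8 members passed where 0.165% of all genes did, with none under an unadjusted 0.05 in edgeR either. DESeq2 gave 0 as well, beside 1.47% of all genes. A single member passed in Mel92.1 with the GC and length offset, S100A1, with each inhibitor against DMSO. Of all genes 1.7% then passed with UNC0642 and 0.454% with A366. With the replicate numbers as a block beside the offset, 0 members passed with either inhibitor. Of all genes 0.716% and 0.124% then did.

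Low counts in Mel92.1 limited what could be seen there of the members that belong to MP41. S100B had 0, 32 and 17 counts with UNC0642, and the 0 came from replicate 1, the library with the high share of ribosomal RNA, which also had 0 counts of S100A2, S100A4 and S100A16. A count of 0 there allows a level of up to 3 counts. S100A16 was below the filter on low counts in Mel92.1 and was not tested in that line. Beside the 0, 1 and 0 counts of the DMSO libraries, it had 0, 10 and 15 under UNC0642 and 2, 4 and 1 under A366. In UNC0642 replicates 2 and 3 that was 1.67% and 1.84% of its mean level in MP41 with DMSO, against 0.052% and 0.0938% for the genes found only in MP41. Those genes were picked as near 0 in Mel92.1 with DMSO, so nothing is read from the comparison.

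**Figure D4:**
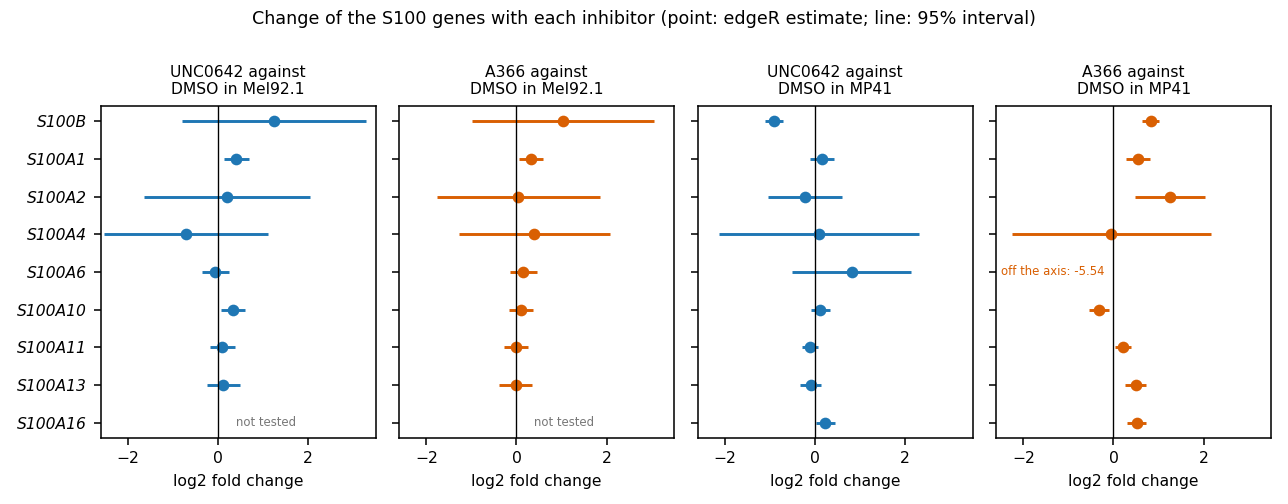
Log2 fold changes (horizontal axis) of each member with UNC0642 and with A366 against DMSO in Mel92.1 and in MP41, as points with 95% intervals from the edgeR fit. S100B lies left of 0 with UNC0642 and right of 0 with A366 in MP41, S100A6 with A366 in MP41 is off the axis at -5.54, and S100A16 was not tested in Mel92.1.

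Whether the lines responded differently was tested in 1 fit over the 18 libraries, as the log2 response of Mel92.1 less the log2 response of MP41. For UNC0642, 1 of 9 members was past the threshold, S100A16, where 0.601% of all genes were (log2 difference 4.15, SE 1.49). S100A16 entered this fit through MP41, where it is high, and was below the filter in Mel92.1. The value rests on few counts and is given as a description. The counts behind it in Mel92.1 are the 1 with DMSO and 25 with UNC0642, and the call was kept in 5 of the 18 fits that left out 1 library, those without Mel92.1 UNC0642 replicate 1 or 1 of the 4 exchanged libraries. Without all 4, S100A16 was not past the threshold, at a log2 difference of 4.13. S100B differed by 2.29 (SE 0.58), with the MP41 side being the fall it was selected on, so no test is given. For A366, 1 of 9 members was past the threshold, S100A6, where 13.8% of all genes were (log2 difference 5.63, SE 2.04). The MP41 side of S100A6 is the 56 counts with DMSO and 1 with A366, for which no test is given above. Its log2 fold change with A366 in Mel92.1 was 0.15, so the difference of S100A6 is a description as well. Over the 18 fits that left out 1 library the log2 difference of S100A6 was 5.02 to 7.34. S100A6 entered each of these through the groups where it is higher, so no test is given from them. Without the 4 exchanged libraries together, which leaves A366 with 1 library per line, the log2 difference was 7.28. S100A13 and S100A10, at -0.54 and 0.40, had adjusted p-values of 0.0925 and 0.096, and S100B differed by 0.20 (95% interval -1.02 to 1.43).

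The other 12 symbols of the family held few counts. None passed the filter on low counts, 4 were at 0 in all 18 libraries, and only S100A14 and S100G exceeded 10 counts anywhere. S100G, an intestinal calcium-binding protein, had 24 counts in Mel92.1 UNC0642 replicate 1 and 0 elsewhere. S100A14, an epithelial member, had 8, 35 and 12 counts with UNC0642 in MP41 and at most 3 in the DMSO libraries of that line. The 35 came from MP41 UNC0642 replicate 2, which also had 51 counts of the epithelial marker EPCAM (19 or fewer in the other MP41 libraries) and 12 of CDH1 (7 or fewer). It had 9 counts of S100A9 and 3 of S100A8 (0 in the others), and 27 of S100A4 (19 or fewer in the others). Its counts of S100A6 (41) and KRT5 (1) were no higher than the highest of the other MP41 libraries (47 and 1).

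Partners and receptors of S100 proteins were read from a list of 25 genes. For this list and those after it, all values are from fits without the GC and length offset, and none with it are given. With A366 in MP41, 5 of the 23 tested rose and 7 fell, where 46.0% of all genes passed, against 0 of 23 with UNC0642, where 0.241% did. In Mel92.1 1 of 21 rose with A366 and 0 with UNC0642, where 0.213% and 0.688% of all genes passed. The median log2 fold change with A366 in MP41 was 0.05 over the list and 0.02 over all genes. ANXA1, the annexin that S100A11 binds, rose with A366 in both lines, from 4.89 CPM ± 0.332 to 9.24 CPM ± 0.409 in MP41 (adjusted p = 0.000385) and from 23.9 CPM ± 2.39 to 48.1 CPM ± 2.52 in Mel92.1 (adjusted p = 0.00295), and it did not pass with UNC0642 in either line (log2 fold changes -0.03 and -0.046). Without the 4 exchanged libraries edgeR called 0 genes with A366 in Mel92.1, so that ANXA1 no longer passed there (adjusted p = 0.532), with 163 at an unadjusted p under 0.05. AHNAK, the scaffold that S100A10 and annexin A2 hold at the membrane, fell by 1.07 on the log2 scale with A366 in MP41 (adjusted p = 0.000415). CAPZA1, an actin-capping subunit whose family carries the motif that S100B binds, fell by 0.46 (adjusted p = 0.000281), and the scaffold IQGAP1 fell by 0.72 (adjusted p = 0.000925). ANXA2, ANXA11 and BSG were among the others that rose, and MYH9, CAPZA2 and STK38L among the others that fell. Without the 4 exchanged libraries, A366 in MP41 is 1 library. There ANXA1, AHNAK, CAPZA1 and IQGAP1 had log2 fold changes of 0.81, -1.14, -0.49 and -0.81 with A366, and ANXA2 fell with UNC0642.

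Between the lines with DMSO, 10 of the 24 partners tested were higher in Mel92.1 and 11 lower, where 69.4% of all genes passed. AGER was among the higher and TLR4 among the lower. ANXA1 was 4.88 times as high in Mel92.1 (adjusted p = 2.46e-12).

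A list of 38 other EF-hand proteins gave 12 higher and 4 lower of 33 tested with A366 in MP41, where 46.0% of all genes passed, and 0 of 33 with UNC0642, where 0.241% did. The median log2 fold change with A366 was 0.19 over the list and 0.02 over all genes, without the GC and length offset. In Mel92.1 1 of 32 rose with UNC0642 and 0 with A366, where 0.688% and 0.213% of all genes passed. The 1 was RCN1, a calcium-binding protein of the endoplasmic reticulum, at a log2 fold change of 0.29 (adjusted p = 0.0252). RCN1 also rose with A366 in MP41, from 488 CPM ± 17.9 to 694 CPM ± 18.3 (adjusted p = 0.000278), and stood at 0.26 with UNC0642 in MP41 (adjusted p = 0.146). With A366 in MP41, the Golgi protein SDF4 rose from 138 CPM ± 0.55 to 190 CPM ± 27.8 (adjusted p = 0.00201), and the calpain subunits CAPNS1 and CAPN1 rose by 0.34 and 0.30 on the log2 scale (adjusted p = 0.00284 and 0.00374). When the 4 exchanged libraries were left out, RCN1, SDF4, CAPNS1 and CAPN1 had log2 fold changes of 0.51, 0.42, 0.32 and 0.27 with A366 in MP41, then 1 library. RCN1 no longer passed with UNC0642 in Mel92.1, at 0.29, and stood at 0.26 with UNC0642 in MP41.

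Of 16 genes of the neural crest and melanocyte lineage, to which S100B belongs by origin, all 16 were tested in MP41, where 3 rose and 6 fell with A366, beside 46.0% of all genes, and 1 rose with UNC0642, beside 0.241%. The median log2 fold change with A366 was -0.16 over the list, again without the GC and length offset. PMEL, the fibril protein of the melanosome, rose by 0.42 with A366 (adjusted p = 0.00045) and MLANA by 0.31 (adjusted p = 0.00179). The pigment enzyme TYRP1 fell by 0.27 (adjusted p = 0.000694). DCT, a further pigment enzyme, rose with UNC0642 in MP41 from 329 CPM ± 1.47 to 506 CPM ± 16.7 (adjusted p = 0.0291) and fell with A366 to 269 CPM ± 45.8 (adjusted p = 0.0222), the reverse of the order of S100B. In Mel92.1 2 of 14 rose with UNC0642, MLANA (log2 fold change 0.34, adjusted p = 0.0379) and TYR, and 0 with A366, where 0.688% and 0.213% of all genes passed. Without the 4 exchanged libraries, PMEL, MLANA, TYRP1 and DCT had log2 fold changes of 0.42, 0.35, -0.29 and -0.31 with A366 in MP41, then 1 library. DCT stood at 0.62 with UNC0642 there, and MLANA no longer passed with UNC0642 in Mel92.1, at 0.34.

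The genes whose log2 CPM over the 9 MP41 libraries was most like that of S100B were CRYAB (Pearson correlation 0.994), PDIA4 (0.99), YARS (0.985), WDR25 (0.985) and TUBA1A (0.984). CRYAB, a small heat shock protein, had 145 CPM with DMSO, 101 with UNC0642 and 192 with A366, the order of S100B. PDIA4, which folds proteins in the endoplasmic reticulum, had 307, 278 and 353 CPM. The points share libraries and treatments, and the genes were picked as the highest among all, so the values are descriptions. Among the members, S100A11 (0.874), S100A13 (0.865) and S100A2 (0.852) ran with S100B over these libraries, at ranks 622, 733 and 890 of the genes of the line. S100A1 (0.626), S100A16 (0.519) and S100A4 (0.322) were less alike. S100A10 (-0.845) ran against S100B, as did S100A6 (-0.879), which had 0 or 1 counts in each A366 library. In Mel92.1, where S100B had 0 to 32 counts, the most alike were SPINK2, ZSCAN21, FAAP24, ZBTB47 and QRICH2, at 0.956 to 0.971.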

How the data were processed

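Gene-level read counts were taken from 1 table of 26475 symbols and 18 libraries. Per the submitters' processing notes, the authors made these deposited expected counts, which need not be whole numbers, with RSEM 1.2.15 and Bowtie2 2.1.0 on hg38; between 5.85% and 13.4% of values per library were not whole, and all were rounded here. The paper's methods name Bowtie2 with TopHat and Cufflinks, a mouse build and FPKM for RNA-seq, and the sources differ on poly(A) selection against ribosomal depletion. The annotation is not given in the sources used here. Positions and lengths came from GENCODE 29 and promoters from RefSeq GRCh38.p14, with 92.9% of symbols matched.

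The members and lists were chosen with earlier results of these data known. Libraries were grouped by label, except that A366 replicates 2 and 3 of each line were placed in the other line, as the gene levels show and as the per-library values published with the study have them. After edgeR's filter on low counts, with TMM factors, edgeR 4.0.16 (R 4.3.3) fitted 14528 genes in Mel92.1 and 14956 in MP41, 9 libraries each, and 15799 over all 18 for comparisons between the lines. Standard errors are Wald errors from the fit with the quasi-likelihood dispersion, and intervals are at 95%. Intervals of ratios of summed counts are exact and cover counting error only. Alternatives were DESeq2 1.42.0, its size factors (RLE), no filter, the labels as given, leaving libraries out, the groups compared alone, a replicate block and a GC and length offset. The code was tested on simulated data: for A366 against DMSO in MP41, over 14956 genes, 77 of 100 genes changed 2-fold and 89 of 100 changed 4-fold were called, with 14 false calls. For A366 in Mel92.1, over 14528 genes, these were 67 and 77 with 5 false calls, and for the line difference in the response to A366, over 15799 genes, 57 and 76 with 7. Apart from the changed genes, each simulated gene had the same mean in all groups. The simulated data held no line differences and no trend with GC content or length, so these rates need not hold for the real comparisons.

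Same-numbered libraries did not deviate together (correlations -0.209 to 0.241, over 0.1 in 1 of 9 pairs in Mel92.1 and 0 of 9 in MP41), so the numbers were not treated as pairs. From each list, at most 4 genes were named, those called in most of the 4 comparisons with DMSO and then by adjusted p-value, and the other called genes of the lists, AGER, TLR4, TYR, the marker genes and the low-count family genes were named after their values were seen.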

Additional observations from a re-analysis of the deposited data

Results flagged for a closer look

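The response of S100A16 to UNC0642 differed between the lines by 4.15 on the log2 scale (Mel92.1 less MP41), from 0, 1 and 0 counts with DMSO and 0, 10 and 15 with UNC0642 in Mel92.1, against 14 to 16.1 CPM and 17.5 to 19 CPM in MP41. S100A16 entered the fit through MP41 and was below the filter on low counts in Mel92.1. The value is therefore a description, and the call was kept in 5 of the 18 fits that left out 1 library.

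The response of S100A6 to A366 differed by 5.63, with 0, 1 and 0 counts under A366 against 13, 31 and 12 under DMSO in MP41, and 20.6 to 26.2 CPM against 17.3 to 22.7 CPM in Mel92.1. The call of S100A6 was lost without the 4 exchanged libraries, and with the libraries as labelled the difference turned to -6.69. These 2 were the members past the threshold in the difference of response, and both values are descriptions.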

How the results depend on the processing

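With the 4 exchanged libraries as labelled, members past the threshold went from 1 to 0 for UNC0642 in MP41, from 8 to 1 for A366 against DMSO and from 8 to 2 for A366 against UNC0642 there, and from 1 to 0 and from 1 to 4 for the line differences in response to UNC0642 and A366. The shares of all genes past the threshold as labelled were 0%, 32.8%, 31%, 0% and 49.4% in that order. Directions then turned for A366 against DMSO in MP41 (S100B -0.68, S100A6 5.24, S100A10 0.099, S100A13 -0.063, S100A16 -0.98), against UNC0642 (S100A6 4.42, S100A16 -1.21) and in the line difference (S100A6 -6.69, S100A10 -0.33, S100A13 0.86). Without the 4, A366 has 1 library per line. Neither line difference then kept its call, and S100B turned to -0.25 in that for A366.

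With the GC and length offset, 1 member (S100A1) passed with each inhibitor in Mel92.1, 4 with A366 in MP41 against either group, and 2 in each line difference. With the offset, and in brackets with the replicate block as well, directions turned for A366 against DMSO in MP41 (S100A11 -0.23 [-0.23]), against UNC0642 (S100A1 -0.069 [-0.062], S100A11 -0.073 [-0.075], S100A16 -0.072 [-0.071]), between the lines (S100A1 -0.04 [-0.038], S100A10 -0.31 [-0.31]) and in the A366 line difference (S100A1 0.32 [0.32]). With both, 4 and 5 members passed in the MP41 comparisons of A366 with DMSO and UNC0642, 0 in the UNC0642 and 2 in the A366 line difference. The shares of all genes were 29.5%, 31.4%, 0.892% and 4.16% in that order. In Mel92.1 0 members passed with both, for UNC0642 and for A366 against DMSO, where 0.716% and 0.124% of all genes did. The replicate block alone gave 0 for the UNC0642 line difference, as did fitting only the groups compared, while DESeq2 and leaving out Mel92.1 UNC0642 replicate 1 with MP41 UNC0642 replicate 2, chosen after seeing the data, gave 2. Of all genes, 0.5% passed that line difference with the block and 1.99% with DESeq2. For A366 against DMSO in MP41 the block gave 7 members, where 42% of all genes passed. The cause was not tested.

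Leaving out 1 library gave 5 to 8 members for A366 against DMSO in MP41, lowest without Mel92.1 A366 replicate 3, 6 to 8 for A366 against UNC0642, 0 to 2 for the UNC0642 line difference, highest without Mel92.1 UNC0642 replicate 1, and 1 to 2 for that of A366. With all libraries, 46.0%, 43.1%, 0.601% and 13.8% of all genes passed in that order. Shares of all genes are not given for the fits that left out 1 library. The log2 fold change of S100B with A366 in MP41, a description since its DMSO libraries were used to select it, was 0.75 to 0.93 in the 9 such fits.

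Over all genes, UNC0642 in Mel92.1 gave 100 calls, 389 with DESeq2, 46 with the block and 247 with the offset. A366 in Mel92.1 gave 31, 170, 10 and 66, A366 against UNC0642 there 24, 214, 6 and 143, and UNC0642 in MP41 36, 180, 9 and 154. The line difference for UNC0642 gave 95, or 315 with DESeq2 and 182 with the offset, and that for A366 2179, or 3446, 839 with the offset and 7801 as labelled. A366 against DMSO in MP41 gave 6884, and 4411 with the block and offset. Members with few counts (S100A4 in all groups, S100B and S100A16 in Mel92.1, S100A6 in MP41) limit what depth can show.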
